A study of Mus musculus with 65 samples.

Results

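TAL1 sites at promoters were 694 regions of the mouse genome (mm10) of 4568 TAL1 sites in all. They were chosen by the peak calls themselves. The peaks of the 10 TAL1 lists assessed as Pass were merged wherever they shared 1 bp or more, and 4568 of the 11582 merged intervals held a peak of 5 or more lists. A promoter site overlapped 1000 bp on either side of the start of a protein-coding transcript (GENCODE M21) and no peak of CTCF library 695, a Pass library of the same cells. The other sites were 2359 in gene bodies, 1275 between genes and 240 that overlapped the CTCF library, wherever these lay.

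The study sheared chromatin to different mean lengths and measured how well ChIP-seq for TAL1 and for the insulator protein CTCF then worked. All 19 TAL1 libraries came from G1E-ER4+E2 cells, and mean chromatin length, in bp, names each list below. G1E-ER4 is a single line of ES-derived mouse erythroid progenitors that lacks GATA1 and carries a GATA1 fused to an estrogen receptor domain. Cells were grown with kit ligand and erythropoietin and treated with estradiol for 24 hours, which makes them mature, and no library of untreated cells was used here. A newly made study series and a retrospective series, some of whose TAL1 libraries had another fixative, together gave 10 Pass, 4 Low pass and 5 Fail TAL1 lists. The authors assigned the assessment by eye from signal tracks. CTCF was also mapped in 8 types of primary blood cells sorted from the bone marrow of C57BL/6 mice, which gave 11 lists.

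TAL1 is a basic helix-loop-helix protein that dimerises with an E protein such as TCF3 and binds E-boxes. In erythroid cells it sits in a complex with LMO2, LDB1 and GATA1, and that complex is known for a composite element in which CTG, the second part of an E-box, stands a fixed distance before GATA. The complex is known both for activating and for repressing genes of the red cell programme, and much of its binding is away from promoters.

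Peaks per list ran from 2670 to 9763 in the Pass lists, from 1212 to 2751 in the Low pass lists and from 204 to 606 in the Fail lists. Read depth is unknown, since the lists hold no counts. The Pass list of 221 bp carries a TAL1 title and an antibody label that names CTCF. Of its 4486 peaks, 79.3% lay in sites of the 9 other Pass lists and 4.26% overlapped CTCF library 695, against 3.81% to 4.95% of the peaks of the other Pass TAL1 lists. Without it 655 sites met the rule. All 655 overlapped members of the full set, but leaving out a list can only shrink merged intervals and lower their counts. That overlap was therefore nearly fixed in advance and does not bear on the label. Nothing in the sources used here says that the lists came from separate cultures, so p-values measure only the spread between lists, which may be technical.

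The sequences below show the composite element in promoter sites on which the results turn. They are the 6 strongest named sites with a match in a stretch free of annotated exons, then 3 sites of red cell genes, then 1 site called in no Low pass or Fail list. Each is read from GRCm38 (mm10), 5′ to 3′ on the strand of the match, with 40 bases on either side, and the capitals mark CTG and GATA.
Rogdi, chr16:5012824-5012918, minus strand, 614 bp downstream of the start: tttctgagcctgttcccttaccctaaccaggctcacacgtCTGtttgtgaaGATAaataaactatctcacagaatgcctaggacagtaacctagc
Zfp790, chr7:29817150-29817245, minus strand, 1079 bp downstream of the start: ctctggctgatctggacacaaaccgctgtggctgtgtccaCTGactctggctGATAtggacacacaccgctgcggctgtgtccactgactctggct
Nfe2, chr15:103258503-103258598, minus strand, 148 bp upstream of the start: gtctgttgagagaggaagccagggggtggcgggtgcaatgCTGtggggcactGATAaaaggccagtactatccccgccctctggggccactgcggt
Frmd4a, chr2:4561365-4561459, plus strand, 1656 bp downstream of the start: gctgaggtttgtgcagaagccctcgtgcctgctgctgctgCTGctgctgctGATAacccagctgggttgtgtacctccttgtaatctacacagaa
Fryl, chr5:73191970-73192064, plus strand, 138 bp upstream of the start: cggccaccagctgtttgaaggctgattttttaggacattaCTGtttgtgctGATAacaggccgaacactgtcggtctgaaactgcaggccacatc
Cd47, chr16:49800096-49800191, minus strand, 389 bp upstream of the start: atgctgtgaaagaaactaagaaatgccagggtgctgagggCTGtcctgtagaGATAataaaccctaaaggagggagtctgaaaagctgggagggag
Epor, chr9:21962597-21962691, minus strand, 80 bp upstream of the start: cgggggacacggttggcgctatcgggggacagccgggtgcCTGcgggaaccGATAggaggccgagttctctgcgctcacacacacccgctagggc
Slc4a1, chr11:102363706-102363801, plus strand, 1526 bp downstream of the start: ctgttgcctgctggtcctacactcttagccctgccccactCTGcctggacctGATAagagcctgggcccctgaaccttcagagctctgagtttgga
Add2, chr6:86077946-86078041, minus strand, 63 bp upstream of the start: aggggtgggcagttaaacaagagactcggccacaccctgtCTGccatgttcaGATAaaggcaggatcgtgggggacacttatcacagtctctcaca
Ptpn7, chr1:135131272-135131366, minus strand, 1381 bp upstream of the start: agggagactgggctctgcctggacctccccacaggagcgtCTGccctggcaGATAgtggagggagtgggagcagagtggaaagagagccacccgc

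In these examples 8 or 9 bases separate CTG from GATA. The element lay 80 bp upstream of the Epor start, 63 bp upstream of that of Add2 and 148 bp upstream of that of Nfe2, but 1526 bp inside Slc4a1. The Zfp790 window held 5 matches and that of Nfe2 held 2, while the other 8 stretches came from windows with 1 or, for Frmd4a, 2 matches. The printed Zfp790 stretch is repetitive, so its matches may be copies of the same unit, and the Frmd4a match lies in a run of CTG. Peak lists do not show whether reads map uniquely there. A match describes the letters and is not a measured contact.

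The promoter sites covered starts of 712 of 21842 protein-coding genes, or 3.26%. Of the 694 sites, 643 served 1 gene, 50 served 2 and 1 served 3, and 43 sites (6.20%) had genes on both strands. Conversely, 31 genes had more than 1 site. Eya1, Rnaseh2a and Utrn had 3 each, and Nfe2, Slc4a1, Prdx2, Arrb1, Csk and Stk11 were among those with 2. Chromosome 11 held 73 of the sites, chromosome 7 held 66 and chromosome X held 5. Widths ran from 645 to 2937 bp with a median of 1025.5 bp, against a median of 1026 bp in gene bodies.

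Most sites did not sit on the start itself. The centre of a site, taken as the median midpoint of its Pass peaks, lay a median of 608 bp from the nearest start, with quartiles of 238.75 and 1086 bp. It was within 250 bp in 178 sites (25.6%), within 1000 bp in 494 (71.2%) and up to 2371 bp away where only the edge of a site reached the window. Upstream and downstream were nearly even, at 351 and 343 sites. By the annotation, 374 centres (53.9%) lay inside a protein-coding gene but in no exon, 153 (22.0%) in an exon and 167 (24.1%) outside such genes.

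**Figure D1:**
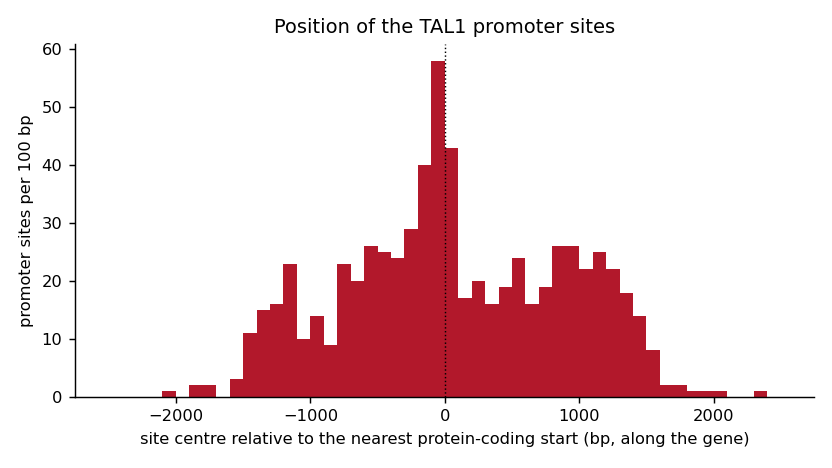
Signed distance in bp from the nearest protein-coding start to the centre of each of the 694 promoter sites, counted per 100 bp along the direction of the gene, with negative values upstream. The tallest bars stand next to the start, and broad shoulders extend past 1000 bp on both sides, with 351 sites upstream and 343 downstream.

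Strength was ranked within each Pass list by column 8, the −log10 of the peak's p-value, as a percentile from 0 to 100, and a site's rank is the median over the Pass lists that called it. These ranks come from the lists that chose the sites and are given as a description. The median rank was 55.7 for promoter sites, 54.1 for gene body sites, 53.7 for sites between genes and 57.6 for CTCF-overlapping sites. All 10 Pass lists called 305 promoter sites (43.9%), beside 41.1% of all 4568 sites. At the limit of the rule, 89 promoter sites were called in exactly 5 Pass lists, with a median rank of 41.2, and 127 intervals at promoters missed the rule with 4 lists, with a median rank of 35.7. The strongest just inside were at Slc16a13 (chr11:70221495-70222460, rank 86.2), Rps26 and Ccdc12. The strongest just outside were at Abhd4 (chr14:54258980-54260373, rank 64.5), Kctd13 and Atp5j2.

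The strongest promoter site lay 1145 bp inside Ppp1r15a (chr7:45524173-45525698), whose protein directs a phosphatase to eIF2α under stress, and also reached the start of Plekha4. Its fold enrichment over background was 56.8 at the lowest, 82.6 at the median and 158 at the highest of the 10 Pass lists, with ranks from 99.4 to 99.99. In the Low pass lists it was 61.3 at 260 bp, 43.7 at 176 bp, 36.2 at 289 bp and 41.9 at 263 bp. It was called in 4 of the 5 Fail lists, with 14.2 at 295 bp, 11.4 at 166 bp, 37.9 at 183 bp and 10.7 at 273 bp, and not at 297 bp. Fold enrichment depends on each library's depth and background, so these values are not compared between lists.

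The next strongest sites were at Rogdi (chr16:5012191-5013662), Zfp790 (chr7:29816520-29817873), Nfe2 (chr15:103257930-103259182), Frmd4a (chr2:4560733-4562069), Vamp8 (chr6:72389206-72390475), Fryl (chr5:73191365-73192581), Cd47 (chr16:49799281-49800847), Trim10 (chr17:36868807-36870062) and Pheta2 (chr15:82341234-82342658). Their median ranks ran from 99.0 to 99.7, and they were picked by these ranks in the Pass lists. All 10 Pass and all 4 Low pass lists called each of them, beside 41.1% and 18.4% of all 4568 sites. Nfe2 encodes the haematopoietic subunit of the NF-E2 transcription factor, Vamp8 a SNARE of vesicle fusion, Cd47 a surface protein that restrains phagocytosis and Trim10 a RING-finger protein of erythroid cells. Of these 10 strongest sites 9 held the composite element in the middle 300 bp, the exception being Trim10.

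Of the genes of the red cell programme, 50 of 156 (32.1%) in 8 lists had a promoter site, beside 3.26% of all protein-coding genes. In the lists for granulocyte and monocyte, lymphocyte, liver and neuron genes the count was 4 of 59 (6.78%). Genes with a site had a median of 3 annotated starts, beside 2 over all protein-coding genes. Mean starts per gene ran from 1.22 (globins) to 5.96 (TAL1 complex) in the 8 red cell lists. In the lists of other cells just named they ran from 1.8 (lymphocyte) to 3.43 (neuron). The part of the number of starts in these shares was not tested. The lists were drawn up with earlier results of these data known, and the shares are descriptive.

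**Figure D2:**
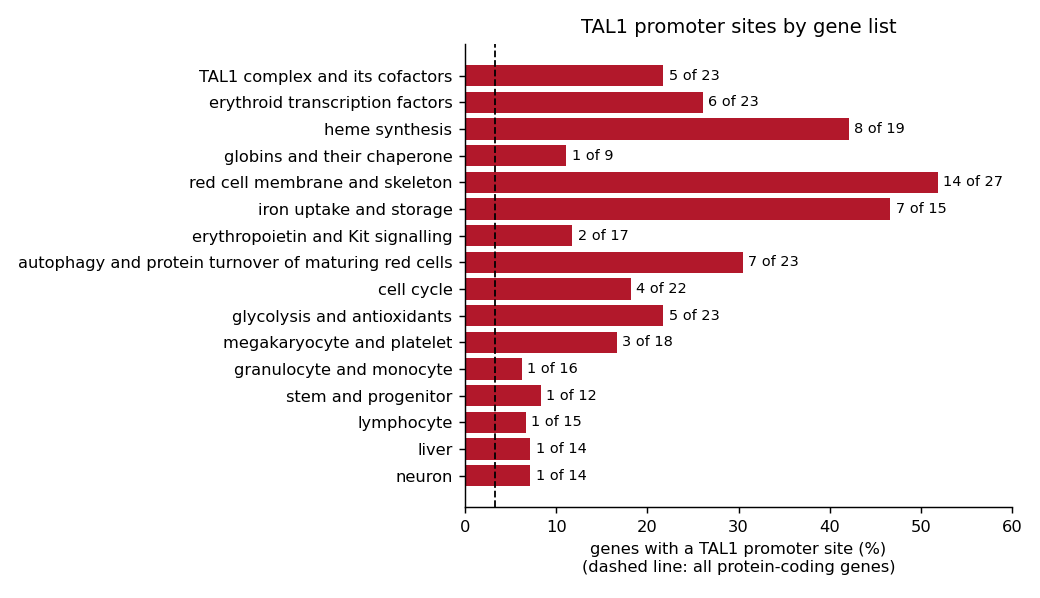
Share of the genes of each list, in percent, with at least 1 TAL1 promoter site, with the count beside each bar and a dashed line at the 3.26% of all protein-coding genes. The red cell membrane list (14 of 27), iron (7 of 15) and heme synthesis (8 of 19) have the longest bars, and the granulocyte and monocyte list (1 of 16) the shortest.

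The complex that holds TAL1 was itself represented by 5 of 23 genes (21.7%). They were Tal1, its close relative Lyl1, the bridging protein gene Lmo2, the E protein gene Tcf3 and the corepressor gene Cbfa2t3. The Lyl1 site (chr8:84700659-84702267) had folds of 26.3, 66.4 and 130 at the lowest, median and highest Pass list. It had 31.0, 34.3, 19.5 and 21.04 in the Low pass lists of 260, 176, 289 and 263 bp, and was called in 3 Fail lists. The site 195 bp inside Tal1 (chr4:115056064-115057221) had folds of 9, 21.6 and 75.5 over the Pass lists. It was called at 260 bp (7.87), 176 bp (14.4) and 263 bp (13.6) but not at 289 bp, nor in any Fail list. Of the Low pass and Fail lists, only that of 260 bp called Lmo2 (10 Pass lists) and Cbfa2t3 (9 Pass lists). None of them called Tcf3 (6 Pass lists, rank 36.4). A TAL1 site at the promoter of Gfi1b overlapped the CTCF library and is therefore no member.

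Among erythroid transcription factor genes, 6 of 23 (26.1%) had a site, namely Klf1, Klf3, Nfe2, Nfe2l2, Bach1 and Tfdp2. Nfe2 had 2, the stronger at rank 99.6 and the other (chr15:103251251-103252438) at rank 94.7. The stronger was called in all 4 Low pass lists and in the Fail lists of 295 bp (15.1) and 183 bp (43.2). Klf1, the erythroid Krüppel-like factor, had a site (chr8:84900786-84902399) with folds of 20.1, 32.4 and 72.9 at the lowest, median and highest Pass list. In the Low pass lists it had 18.5 at 260 bp, 16.8 at 176 bp, 12.6 at 289 bp and 19.0 at 263 bp, and no Fail list called it. Klf3 stood at the other end, with 5 Pass lists, a rank of 17.2 and no other call.

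Heme synthesis had 8 of 19 genes (42.1%), among them Uros, Urod, Cpox and Fech of the enzymes and Slc25a38, Abcb6 and Abcg2 of the transporters. The median rank of the 8 sites was 88.0, beside 55.7 over all promoter sites. All 8 were called in 1 or more Low pass lists, which called 61.6% of all 4568 sites, and 6 in all 4, which called 18.4%. Calls rose with rank over all promoter sites, as given below. The part of rank in the counts of this and the other gene lists was not tested. Fech, which inserts iron into protoporphyrin, had folds of 20.4, 15.2, 12.6 and 15.6 in the Low pass lists of 260, 176, 289 and 263 bp. Among the Low pass and Fail lists, those of 260 and 263 bp alone called Uros. Abcb6 was the only heme site in a Fail list, that of 183 bp, with a fold of 30.7. Promoter sites of Ppox and Blvrb overlapped the CTCF library and are not counted.

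The red cell membrane and its skeleton had the largest share of the lists examined, with 14 of 27 genes (51.9%) and 15 sites. Sptb (β-spectrin), Ank1 (ankyrin), Epb41, Epb42, Slc4a1 (the band 3 anion exchanger), Add1 and Add2 (adducins), Tmod3 (tropomodulin), Kel, Ermap, Cd47, Stom and Tspo2 were among those with a site. The Ank1 site (chr8:23034555-23036354) had folds of 25.4, 41.2 and 71.0 at the lowest, median and highest Pass list. In the Low pass lists it had 24.99 at 260 bp, 19.2 at 176 bp, 8.15 at 289 bp and 9.51 at 263 bp, and it was called in 1 Fail list, at 183 bp with 57.6. Slc4a1 had a strong site 1463 bp inside the gene (chr11:102363212-102364418, rank 96.3), called in all 4 Low pass lists. Its other site, 86 bp from the start (chr11:102364738-102365648), had a rank of 38.0 and no Low pass or Fail call. Of the 15 sites, 9 were called in all 4 Low pass lists, 4 in a Fail list and 2 in no Low pass or Fail list, beside 18.4%, 9.04% and 38.3% of all sites.

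Iron uptake and storage had 7 of 15 genes (46.7%), Tfrc, Tfr2, Slc25a28, Slc40a1, Fth1, Ncoa4 and Pcbp1, with a lower median rank of 47.3. None was called in all 4 Low pass lists or in a Fail list, beside 18.4% and 9.04% of all sites. Of the 7, 3 were in at least 1 Low pass list, beside 61.6% of all sites. Transferrin receptor Tfrc itself was called in 5 Pass lists at rank 47.2. The erythropoietin receptor gene Epor (chr9:21961989-21964042) had folds of 26.5, 50.4 and 124 over the Pass lists, and 31.9, 30.5, 17.5 and 14.3 at 260, 176, 289 and 263 bp in the Low pass lists. It was called in the Fail list of 183 bp, and with Cish, a feedback inhibitor of cytokine receptors, made 2 of 17 genes of erythropoietin and Kit signalling. Of the 9 globin genes found in the annotation 1 had a site, the adult β-globin gene Hbb-bs (8 Pass lists, rank 65.5, fold 11.6 in the Low pass list of 260 bp). Hbb-bs has a near-identical neighbour, so reads there may be shared between copies and its value is uncertain.

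Autophagy and protein turnover of maturing red cells had 7 of 23 genes, Atg7, Atg4d, Map1lc3b, Trim10, Trim58, Ube2o and Usp15, and all 7 sites were called in a Low pass list, beside 61.6% of all sites. The strongest, at Trim10, had folds of 44.5, 68.7 and 167 over the Pass lists and 44.2, 36.1, 26.9 and 34.1 at 260, 176, 289 and 263 bp in the Low pass lists. In the Fail lists it had 9.98 at 295 bp, 12.5 at 166 bp, 50.4 at 183 bp and 14.1 at 273 bp. The cell cycle list had 4 of 22 (Ccnd2, Ccnd3, Ccne1 and Btg2), glycolysis and antioxidants 5 of 23 (Hk1, Pfkl, Prdx2, Cat and Gpx1) and megakaryocyte and platelet genes 3 of 18 (Itga2b, Gp1ba and Pf4). Itga2b, the platelet integrin, was called in all 4 Low pass lists and Pf4 in none. The lists of genes of other cells had 1 gene each, namely Spi1 for granulocytes and monocytes, Mllt3 for stem cells and progenitors, Rag1 for lymphocytes, Ahsg for liver and Tubb3 for neurons. Rag1 shares its site with B230118H07Rik.

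The composite element, written CTG, 7 to 9 bases and GATA on either strand, stood in the middle 300 bp of 347 of 694 promoter sites, 50% (95% Wilson interval 46.3% to 53.7%). It stood in 53.2% of gene body sites and 52.8% of sites between genes. Windows of 300 bp had it at 5.78% of the 54353 distinct protein-coding starts, at 7.98% when centred 600 bp upstream and at 7.73% when centred 600 bp downstream of them. The motif AGATAA, known to be bound by GATA factors, was found in 46.7% of promoter sites, 55.4% of gene body sites and 58.8% of sites between genes, beside 8.34% at all starts and 14.9% upstream of them. CANNTG, the bare E-box, was common everywhere, at 83.6% of promoter sites and 68.1% of all starts. Matches of these motifs may overlap, since CTG can be part of CANNTG and GATA part of AGATAA.

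In GC and CpG content the promoter sites lay nearer to windows 600 bp from protein-coding starts than to windows on the starts themselves. The share with TATAAA was nearer to that at the starts. Their own centres lay a median of 608 bp from the start, and the part of distance was not tested. Median GC content was 50.3%, against 46.3% in windows 600 bp upstream, 49.3% in those 600 bp downstream and 58.3% at the starts, and it was 48.3% in gene body sites. The median ratio of observed to expected CpG was 0.28, against 0.27 upstream, 0.34 downstream and 0.57 at the starts, and 0.19 in gene body sites. By a common definition of CpG-rich sequence, a ratio of 0.6 and a GC content of 50% or more, 56 promoter sites (8.07%) qualified, against 11.3% of windows upstream, 17.7% downstream and 46.6% at the starts, and 0.339% of gene body sites. GGGCGG, the core of the GC box, was in 15.0% of promoter sites, 13.5% of windows upstream, 17.1% downstream, 43.9% at the starts and 7.38% of gene body sites. TATAAA was in 9.65% of promoter sites, beside 17.9%, 13.5% and 9.43% of windows upstream, downstream and at the starts. CCAAT was in 31.6%, beside 33.1%, 31.2% and 33.4% in the same order. ACTTCCGG, an ETS-factor motif, was in 0.72%, beside 0.631%, 0.552% and 4.46%.

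Calls in the Low pass and Fail lists took no part in choosing the sites. Of the 694 promoter sites, the Low pass lists called 402 (57.9%) at 260 bp, 251 (36.2%) at 176 bp, 236 (34.0%) at 289 bp and 192 (27.7%) at 263 bp. Over all 4568 sites these lists called 57%, 33.3%, 30.8% and 25.2%. The Fail lists called 39 promoter sites (5.62%) at 295 bp, 17 (2.45%) at 166 bp, 54 (7.78%) at 183 bp and 11 (1.59%) at 273 bp, beside 3.66%, 1.4%, 6.59% and 1.12% of all sites. The Fail list of 297 bp called 0 of 694, which allows a share of up to 0.432%, and 0.131% of all sites. Low pass lists called 38.9% ± 13.2 (SD, n = 4) of the promoter sites and Fail lists 3.49% ± 3.16 (SD, n = 5). The groups did not overlap, and the difference of 35.5 points had an exact permutation p of 0.00794, the smallest this design allows (two-sided, adjusted 0.012). Gene body and intergenic sites showed a similar gap, with 36.0% ± 14.3 called in Low pass lists and 2.31% ± 2.46 in Fail lists. Since the assessment was made by eye on these same libraries, it is not independent of their calls. The p-value is therefore no independent support for the gap.

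Promoter sites were called slightly more often than gene body and intergenic sites in 8 of the 9 lists. The mean difference from gene body and intergenic sites together was 1.98 points ± 1.43 (SD, n = 9), by an exact two-sided sign-flip permutation test p = 0.00781 (adjusted over 9 tests 0.012). Against gene body sites alone it was 2.14 points ± 1.70 and against sites between genes 1.68 ± 1.19, each with the same p. The excess ranged from 1.10 points at 260 bp to 3.98 at 289 bp in the Low pass lists and from 0.594 at 273 bp to 2.51 at 295 bp in 4 Fail lists, and the Fail list of 297 bp went the other way by 0.138 points. Promoter sites also had higher ranks in the Pass lists than gene body and intergenic sites, but not than CTCF-overlapping sites. Averaged within 4 equal groups of all sites by strength, the difference was 0.429 points (exact sign-flip p = 0.262). It was 0.478 against gene body sites (0.297 by the same test) and 0.301 against sites between genes (0.387), and none passed the threshold. These groups rest on ranks in the lists that chose the sites, and the part of strength in the excess was not tested. Against CTCF-overlapping sites the difference was -0.246 points ± 0.908 (exact sign-flip p = 0.434), with promoter sites ahead in 2 of the 9 lists. The lists share the sites and, within the study series, may share chromatin.

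**Figure D3:**
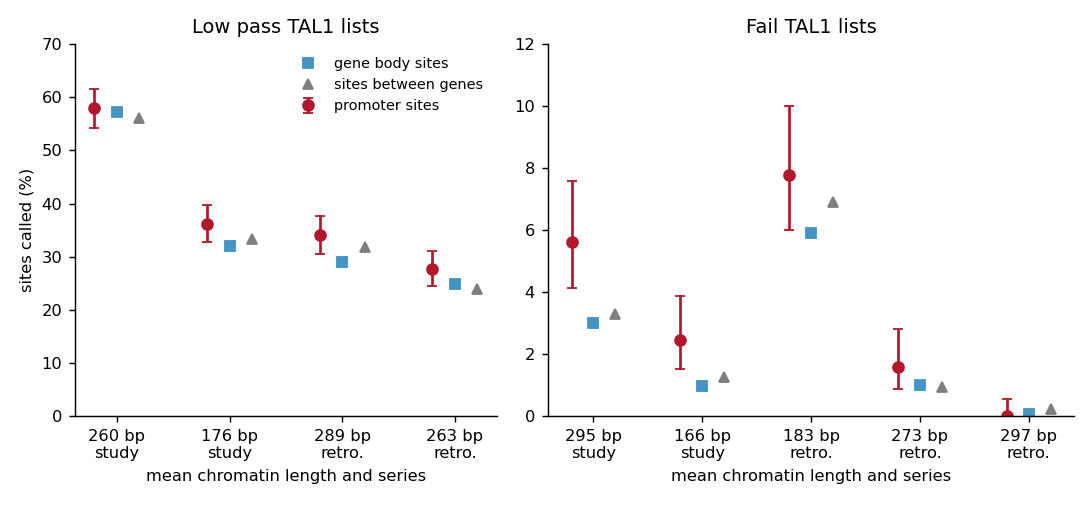
Percent of TAL1 sites called in each Low pass list (left) and Fail list (right, with its own axis), for promoter sites with 95% Wilson intervals, gene body sites and sites between genes; retro. marks the retrospective series. The promoter point is the highest of the 3 in every list but the Fail list of 297 bp, and the intervals of the lists of 260, 273 and 297 bp include both other points.

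The share of promoter sites called rose with strength, which was ranked in the Pass lists that chose the sites. In the strongest of the 4 groups, with 192 promoter sites, Low pass lists called 89.97% ± 9.33 (SD, n = 4) and Fail lists 11.98% ± 10.7 (SD, n = 5). In the weakest, with 156 promoter sites, Low pass lists called 5.61% ± 6.55 and Fail lists 0. Gene body and intergenic sites gave 88.8% and 9.09% in the strongest and 5.75% and 0.0859% in the weakest group. The strongest group of all sites held 27.7% of the promoter sites and 24.2% of the gene body and intergenic sites. In the Low pass lists, the promoter sites that were called had median ranks of 55.2 to 59.7 within the list. The called gene body and intergenic sites had 51.0 to 53.7.

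**Figure D4:**
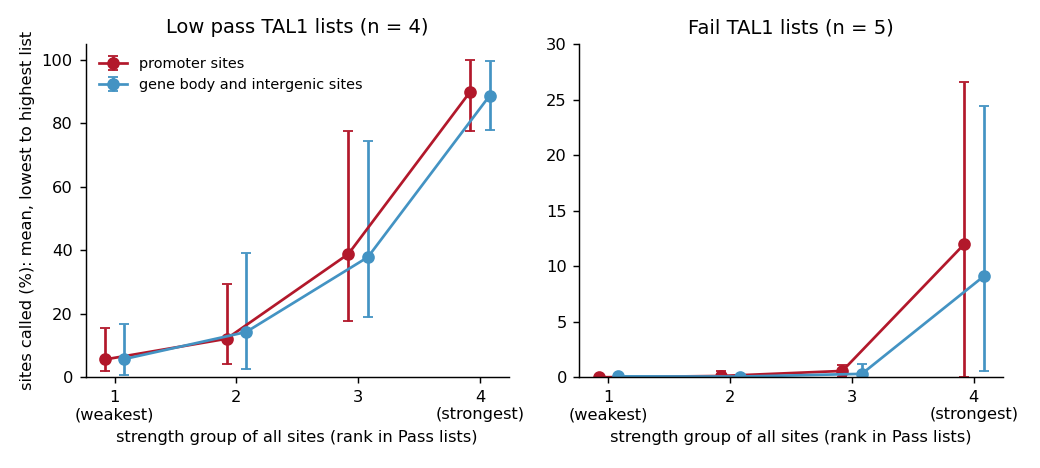
Mean percent of sites called in the 4 Low pass lists (left) and the 5 Fail lists (right, with its own axis) in 4 equal groups of all 4568 sites ranked by strength in the Pass lists; bars run from the lowest to the highest list. Both kinds of site rise together, to 89.97% and 88.8% for the strongest group in the Low pass lists.

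Counted by site, 146 promoter sites (21.04%) were in all 4 Low pass lists, beside 18.4% of all sites, and 437 (63.0%) were in at least 1, beside 61.6%. At least 1 Fail list held 80 promoter sites (11.5%), beside 9.04%. No Low pass or Fail list held 255 (36.7%), beside 38.3%. The promoter sites with most calls included those at Ppp1r15a, Zfp790, Trim10 and Syne3, each with 8 of 9 lists, and at Rogdi, Frmd4a, Vamp8, Fryl and Lyl1, with 7. Syne3 (chr12:105010569-105012432), a nuclear envelope protein gene, was called without the composite element. The strongest sites that none of the 9 lists called were at Asic4 (rank 67.2), Zbtb12 (67.0), Tfr2 (66.3), Ptpn7 (65.9) and Hnrnph1 (62.0), and none of these was in all 10 Pass lists.

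Within the promoter sites, the 347 with the composite element had a median rank of 61.7 and the 347 without it 51.9. Low pass lists called 46.9% of the first and 31.0% of the second on average, and Fail lists 4.78% and 2.19%. The 56 CpG-rich sites lay nearer the start, at a median of 242.5 bp against 673.5 bp, and had 29.9% and 1.43% called on average in Low pass and Fail lists, against 39.7% and 3.67% of the other 638. Sites centred within 250 bp of a start had 41.2% called on average in Low pass lists, those at up to 1000 bp 35.1% and those beyond 43.0%, so calls did not follow distance in 1 direction. These splits were made after the values were seen and were not tested.

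Of the peaks of a whole list, 14.03% ± 0.834 (SD, n = 10) lay at promoters without CTCF library 695 in Pass lists, with a range of 12.9% to 15.5%. The Low pass lists had 12.5% to 14.1%. Among the Fail lists, 13.9% at 183 bp and 11.3% at 295 bp stood near that range, while 3.63% at 166 bp, 2.23% at 273 bp and 0.98% at 297 bp fell well below it. The difference between Pass and the other 9 lists together was 4.41 points (exact permutation p = 0.00803, two-sided, adjusted 0.012). It came to 2.41 points with p = 0.32 by the same exact test when only peaks with a −log10 p of 10 or more were kept.

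The CTCF filter rested on 1 library, and the other CTCF lists of the same cells map the same factor, so they are not independent of the filter. In the 13 other Pass CTCF lists of the same cells, 0 to 17 promoter sites held a CTCF peak (0.61% ± 0.80, SD, n = 13), and gene body and intergenic sites did so in 0.525% ± 0.55. The difference of 0.0847 points had p = 0.315 (exact sign-flip). At least 1 of the 13 lists covered 27 promoter sites (3.89%), beside 2.75% of all 4328 sites free of library 695, and 1 promoter site, at Mrpl11, was covered by 7 of the 13.

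In the primary cells the promoter sites held CTCF peaks in 2.93% ± 3.28 (SD, n = 11) of cases, against 0.806% ± 0.691 of the gene body and intergenic sites, a difference of 2.13 points ± 2.60 (exact sign-flip p = 0.00391, adjusted 0.012) seen in 10 of 11 lists. The largest share was in CFUMk, a megakaryocyte progenitor gate, with 79 sites (11.4%), beside 4.04% of all 4328 sites. GMP had 35 (5.04%), LSK 6 and 33, CMP 23 (3.31%), CFUE 16 (2.31%), iMk 9 and 16, MEP 4 and ERY 0 and 3. The CMP and GMP lists are assessed as Low pass and the other 9 as Pass, and with these 9 alone the difference was 1.87 points (exact sign-flip p = 0.0156). At least 1 primary list covered 100 promoter sites (14.4%), beside 5.89% of all 4328. Mrpl11, with 8 of 11 lists, led, followed by Hnrnph1, Cln8 and Ripor1 with 7, and these were named after their values were seen. Peaks per primary list ran from 6629 in an ERY list to 36481 in CFUMk. The share of promoter sites tended to rise with peaks, but not throughout. CFUE had 2.31% with 11990 peaks, and the first LSK list 0.865% with 18945. The share of all CTCF peaks at promoters was 11.2% to 17.7% in the primary lists and 10.1% to 12.5% in the cell line lists. The part of either in the result was not tested. Without the CFUMk list the difference was 1.47 points (exact sign-flip p = 0.00781).

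**Figure D5:**
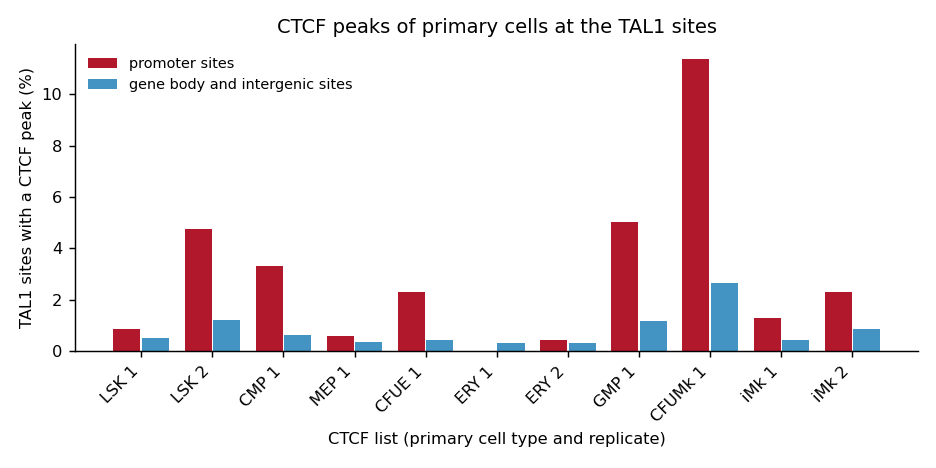
Percent of TAL1 promoter sites and of gene body and intergenic sites, both without CTCF library 695, that overlap a CTCF peak in each of 11 lists of primary cells, named by cell type and replicate. The promoter bar is the taller in all lists but ERY 1, and CFUMk has the tallest at 11.4% against 2.64%.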

How the data were processed

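TAL1 and CTCF ChIP-seq peak lists were used, 1 per library. The authors mapped reads to mm10 with Bowtie (1.0.0 by the submitters' processing notes, an earlier version by the paper) and called peaks with MACS, mostly against a composite input; the p cutoff is not given in the sources used here. The deposited lists give each peak's fold enrichment, a ratio to background, and its −log10 p, with 5 as the lowest. Both depend on depth, so column 8 was ranked within a list only.

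Sites were merged and classed in Python 3.11.15 with NumPy 2.4.6 and GENCODE M21 starts, and a site counted as called in a list with 1 bp shared. Groups came from the assessment labels. The members and gene lists were chosen with earlier results of these data known. Values per list were compared by exact sign-flip or permutation tests with Benjamini-Hochberg adjustment over 9 tests, by code tested on simulated lists. The GRCm38 genome matched all 32851 RefSeq promoter sequences supplied. Intervals and floors cover counting error only. Named were the 10 strongest sites, every listed gene with a site, the 10 with most Low pass and Fail calls, the 5 strongest without any and sites next to the limit. The alternatives changed the number of Pass lists, window, transcripts, CTCF filter, p, overlap, series and lists. Low pass and Fail CTCF lists of the cell line and inputs were not used here. Results for a few named genes are not reported here.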

Additional observations from a re-analysis of the deposited data

How the results depend on the processing

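No paired analysis was possible because the labels give no replicate numbers that groups share. The study also varied the numbers of cells, which the paper gives. They are not in the labels and were not used as blocks. The sign-flip tests compare kinds of site within each list. Calls of promoter sites exceeded those of gene body and intergenic sites together, of gene body sites and of intergenic sites in every alternative. This excess was past the threshold in all but 3 each. Within the 4 groups by strength it was 0.429, 0.478 and 0.301 points. In the study series alone it was 2.17, 2.26 and 2.01 points and in the retrospective series alone 1.82, 2.05 and 1.41 (exact sign-flip p = 0.125 each). That p is the smallest the 4 lists of the study series allow. It is not the smallest for the 5 retrospective lists, among which the Fail list of 297 bp went the other way. Leaving out each Low pass or Fail list gave 1.73 to 2.24, 1.78 to 2.42 and 1.43 to 1.91 points. Against CTCF-overlapping sites the difference turned to 0.252 points with 8 or more Pass lists and to 0.817 within the 4 groups, and was -0.487 to -0.111 leaving out a list. The Low pass lists called 43.0 points more promoter sites than the Fail lists in the study series (exact p = 0.333) and 27.7 in the retrospective series (0.1), the smallest p these allow, and 29.1 to 39.2 leaving out a list.

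The excess itself was 1.81 points larger in Low pass than in Fail lists (exact permutation p = 0.0635). It was 2.11 with a window of 500 bp, 3.11 with 2000 bp and 2.31 with a −log10 p of 10 or more, each past the threshold, and 1.47 to 2.43 leaving out a list, past it only without the Low pass list of 260 bp. The promoter share of Pass lists exceeded that of the others by 2.41 points with a −log10 p of 10 or more and by 4.69 in the retrospective series, neither past the threshold, and by 3.33 to 4.98 leaving out a list. The CTCF difference in the cell line was -0.0325 points with 8 or more Pass lists and 0.157 with a window of 2000 bp, which passed the threshold; leaving out a list gave 0.0321 to 0.110. In primary cells it was 1.24 to 2.68 points under 8 alternatives, all past the threshold, and 1.47 to 2.37 leaving out a list. A −log10 p of 10 or more left 434 promoter sites. The composite element stood in 62.7% of whole sites and in 62.0% of the middle windows with 6 to 10 bases allowed. The cause of these changes was not tested. Leaving out lists of CTCF, 1 mean per primary cell type, Pass primary lists alone and leaving out the Fail list without a promoter site were chosen after seeing the data. Read depth cannot be judged from peak lists.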

Other observations

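Some gene families were counted by symbol. Mitochondrial ribosomal protein genes had a TAL1 promoter site in 6 of 78 cases (Mrpl53, Mrps36, Mrps18b, Mrpl11, Mrpl52 and Mrpl15), with a median rank of 58.4, and genes of the cytosolic ribosome in 2 of 83 (Rps26 and Rpl41). Solute carrier genes had 23 of 369 (6.23%), among them Slc4a1, Slc38a5 and Slc25a38, and 16 of their 24 sites were called in a Low pass list, beside 61.6% of all TAL1 sites, and none in a Fail list, beside 9.04%. Zfp zinc finger genes had 12 of 394 (3.05%), beside 3.26% of all protein-coding genes. Of these 12 sites 9 held the composite element, beside 50% of all promoter sites. Trim genes had 5 of 68 (Trim10, Trim56, Trim58, Trim7 and Trim12c). Histone genes had 1 of 82, the oocyte linker histone H1foo.

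Promoter TAL1 sites that overlapped CTCF library 695 belonged to 59 further genes with no other promoter site. From the gene lists these included Gfi1b, Ppox, Blvrb, Tmcc2 and Ube2l6.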
